A study of Mus musculus with 96 samples.

Results

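Silent temperature-sensitive neurons of the mouse preoptic area were set against warm-sensitive neurons that carry no silent label, to see how alike the 2 groups were in their RNA. The cells were chosen by their label for temperature sensitivity: 10 silent sensitive and 21 warm-sensitive cells, 31 of the 96 cells in the series. The study recorded single neurons in slices of hypothalamus from C57BL/6N mice aged 2 to 3 months by whole-cell patch clamp, drew each cell into a glass pipette and sequenced its RNA by Smart-seq2 (Patch-seq). Its aim was to find genes that mark temperature-sensitive cells. All groups share this strain, age, tissue and method; no transgene, drug or other treatment is named in the labels. Among the other cells, 18 silent insensitive and 24 insensitive cells served here to show where the comparison differs, 5 cold-sensitive cells entered only the likeness of cells, and 18 cells of unknown class entered no comparison.

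The preoptic area, at the front of the hypothalamus, helps to hold body temperature steady. It is known for warm-sensitive neurons, which fire faster as the local temperature goes up. A silent neuron fires no action potentials of its own at rest; whether it fires depends on its resting conductances, its synaptic inputs, and the sodium and potassium channels that shape the spike. The area holds GABAergic and glutamatergic neurons, many of which also release neuropeptides. The labels do not give the criterion by which a silent cell was called sensitive, nor whether these cells responded to warming or cooling.

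Each cell is its own library, and the animal it came from is not labelled. Each group therefore counted as 1 sample, no test was made, and the values describe these cells only. Levels are CPM, a cell's counts of a gene scaled to 1000000 counts outside Rn45s, the ribosomal RNA precursor, which took 53.2% of all counts in the table and 29.3% to 90.6% of the counts of each of the 31 cells. A gene was called present in a cell at 10 CPM or more. Differences are silent sensitive minus warm-sensitive, in mean log2(CPM + 1) over cells, a scale that shrinks the differences of weakly expressed genes. A gene was eligible when it was present in 25% or more, and no fewer than 3, of the cells in one group or the other.

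The libraries of the 2 groups overlapped in size. Counts outside Rn45s ran from 298276 to 1026836 (median 415420) in silent sensitive cells and from 73702 to 1442967 (median 314892) in warm-sensitive cells. The median Rn45s share was 61.8% and 67.7%, and the median count of detected genes 3230 and 3244, in silent sensitive and warm-sensitive cells. Thinned to 100000 counts outside Rn45s, which left out 1 warm-sensitive cell, the medians were 2152.5 genes in silent sensitive and 2188 genes in warm-sensitive cells. The cell left out, warm-sensitive cell 16, had 1615 genes with a count, Rn45s among them, and 1614 genes at 10 CPM or more. A single count passes 10 CPM in that cell, so presence there can rest on 1 count. Gad2, Avp and Fosb were each called present in it at 13.6 CPM. Snap25, a synaptic membrane protein of all neurons, was present in every one of the 31 cells. The summed level of 18 pan-neuronal genes (lowest, median and highest cell) was 3649, 12432 and 24698 CPM in silent sensitive cells and 3986, 14570 and 23761 CPM in warm-sensitive cells.

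Some cells stood apart by their marker genes. Silent sensitive cell 6 had 63305 CPM of microglia markers, the highest of the 31 cells, and the lowest summed levels of the silent sensitive group for pan-neuronal genes (3649 CPM), synaptic release genes (1267 CPM) and granins (68.0 CPM). Warm-sensitive cell 17 had 80668 CPM of oligodendrocyte markers, against a median of 644 CPM in its group. Warm-sensitive cell 8 had 37516 CPM of astrocyte markers and 3986 CPM of pan-neuronal genes, the lowest sum of its group. All 3 are kept. Values without silent sensitive cell 6 and warm-sensitive cell 17 together, and without warm-sensitive cell 8, follow for the counts over all genes.

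**Figure D1:**
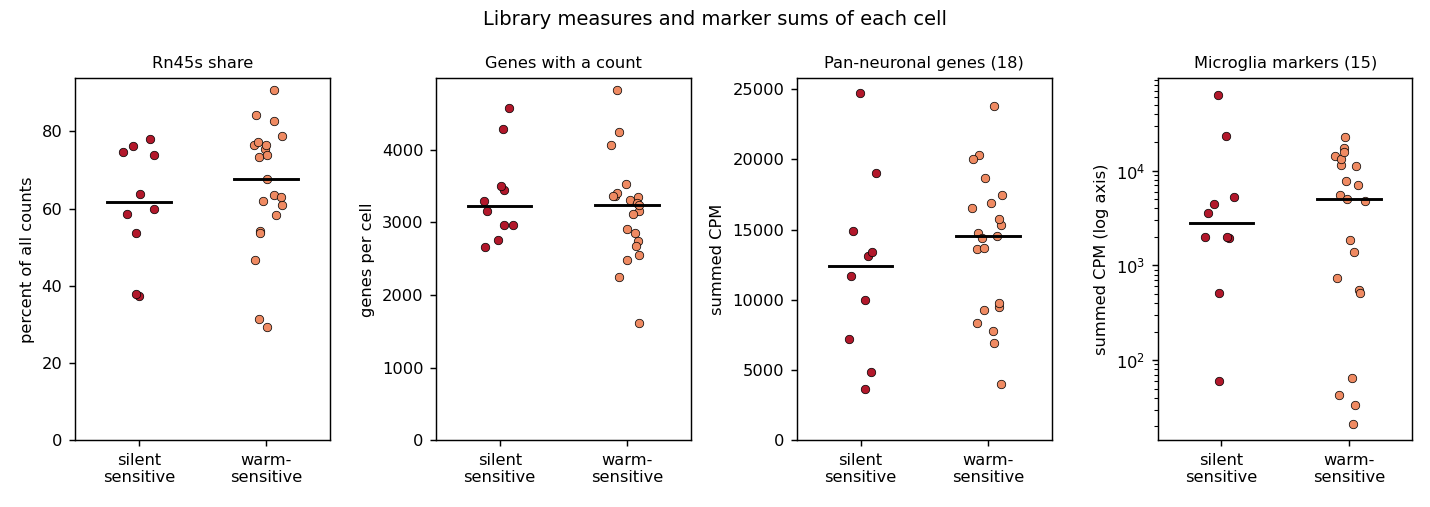
Each point is 1 cell, silent sensitive cells left and warm-sensitive cells right of each panel, with the group median as a bar. The panels show the Rn45s share of all counts (percent), the number of genes with a count, and the summed CPM of pan-neuronal genes and of microglia markers (log axis). The groups overlap in all panels; the highest microglia sum, 63305 CPM, is silent sensitive cell 6.

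Over 2938 eligible genes the median difference was 0.34, with quartiles of -0.68 and 1.27, and 49.4% of the genes differed by less than 1 either way. Past a 4-fold difference (2 on the log2 scale), 298 genes were higher in silent sensitive cells, 10.1% of those eligible, and 137 were lower, 4.66%. These shares are the background against which each gene group below is read. Eligibility set much of them: 939 genes were eligible through the silent sensitive group alone, of which 912 had a higher mean there and 222 were past 4-fold higher. Through the warm-sensitive group alone 559 were eligible, of which 105 were past 4-fold lower. Among the 1440 genes eligible in both groups, 805 had a higher mean in silent sensitive cells, 76 were past 4-fold higher and 32 lower. The split between higher and lower depended on the centre: relative to the median gene 163 genes were higher and 229 lower. Over 75% of counts lay in Rn45s in 2 silent sensitive and 8 warm-sensitive cells, and without those cells the median difference turned to -0.29, with 309 genes higher and 385 lower. With any 1 cell left out and eligible genes chosen anew each time, the median was 0.094 to 0.43, lowest without silent sensitive cell 3. With the 2938 genes held fixed, it was 0.21 to 0.46. Without the cells highest in glial markers, silent sensitive cell 6 and warm-sensitive cell 17, 336 of 3136 eligible genes were higher and 177 lower. The median difference was then 0.125. Without warm-sensitive cell 8 the counts were 316 higher and 159 lower, and the median difference was 0.17.

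The groups shared a core of genes. In both, 25 genes were present in every cell, among them Calm2, which encodes calmodulin, the cytoskeletal genes Actb and Map1b, the brain creatine kinase gene Ckb, the prohormone-processing inhibitor Pcsk1n, the imprinted neuronal gene Ndn, and Ptgds. Present in at least 80% of cells were 262 genes in silent sensitive and 199 in warm-sensitive cells, and 162 in both. At 50% of cells the numbers were 956 and 642, with 539 in both, which is 56.4% of the silent sensitive and 84.0% of the warm-sensitive genes. Shares over 10 cells vary more by counting than shares over 21. The larger numbers are therefore not read as more genes in silent sensitive cells. Genes present in at least 50% of cells of one group and in none of the other numbered 3. Sncg, a synuclein, was present in 50% of silent sensitive cells (18.7 to 81.3%) and 0% of warm-sensitive cells (0 to 16.1%). Csnk2b, the regulatory subunit of casein kinase 2, and the predicted gene Gm561 were present in none of the silent sensitive cells (0 to 30.8%), against 61.9% and 52.4% of warm-sensitive cells. These 3 genes were singled out after their values were seen, and intervals here and below are exact Clopper-Pearson 95% intervals that cover counting error over cells only.

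Ptgds, which encodes a prostaglandin D synthase, was present in 10 of 10 silent sensitive and 21 of 21 warm-sensitive cells. Its levels were 51.6, 550.2 and 186437 CPM (lowest, median, highest) in silent sensitive cells and 29.3, 1019 and 50281 CPM in warm-sensitive cells. The ranges overlapped, the highest cell being a silent sensitive one, and the difference of -1.10 was 0.15 within title letters, that is among cells whose titles carry the same letter. The labels do not explain the letter, which is taken here as a possible batch; 5 letters hold 8 silent sensitive and 16 warm-sensitive cells, and only these enter values within letters. Letter C holds 2 silent sensitive cells, 5 and 6, and no warm-sensitive cell.

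GABA and glutamate cells were found in both groups. By the genes for GABA synthesis, Gad1 or Gad2, and for the vesicular glutamate transporter Slc17a6, 5 silent sensitive cells had a Gad gene only, 2 had Slc17a6 only, 1 had both and 2 had neither. Of the warm-sensitive cells, 11 had a Gad gene only, 2 had Slc17a6 only, 7 had both and 1 had neither. The 2 silent sensitive cells with neither were cells 5 and 6, and the warm-sensitive one was cell 17, the cell with the highest oligodendrocyte sum. Cells with a Gad gene only made 50% of silent sensitive cells (18.7 to 81.3%) and 52.4% of warm-sensitive cells (29.8 to 74.3%).

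The 2 Gad genes stood differently in the groups. Gad1 (chromosome 2, 70553072 to 70602014, plus strand of mm10) was present in 40% of silent sensitive cells (95% interval 12.2 to 73.8%) and 71.4% of warm-sensitive cells (47.8 to 88.7%). Its levels were 0, 2.96 and 476 CPM (lowest, median, highest) in silent sensitive cells and 2.65, 258 and 3793 CPM in warm-sensitive cells. No silent sensitive cell passed 476 CPM, while the warm-sensitive cells spread widely. The difference was -3.24, -3.64 within letters, and -3.81 to -2.82 when any 1 cell was left out. On the log scale Gad1 stood at 3.72 ± 3.27 in the 10 silent sensitive cells and 6.96 ± 3.49 in the 21 warm-sensitive cells (mean ± SD of log2(CPM + 1)).

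Gad2, whose enzyme supplies GABA at synapses, was present in 6 of 10 silent sensitive and 14 of 21 warm-sensitive cells. Its levels of 3.35, 330.0 and 5004 CPM (lowest, median, highest) in silent sensitive cells and 0, 15.6 and 4479 CPM in warm-sensitive cells gave a difference of 0.85, which was 2.71 within letters and turned to -0.96 over summed counts. In silent sensitive cells 1 and 10, Gad2 was at 740 and 309 CPM with Gad1 at 1.95 and 2.79 CPM. Both Gad genes were present together in 40% of silent sensitive cells (12.2 to 73.8%) and 52.4% of warm-sensitive cells (29.8 to 74.3%). Slc32a1, which loads GABA into vesicles, was present in 3 of 10 silent sensitive and 3 of 21 warm-sensitive cells. Its difference of 0.43 was -0.41 within letters and -2.60 over summed counts. Dlx5, a homeobox gene of forebrain GABA neurons, reached 10 CPM in 3 of 10 silent sensitive and 0 of 21 warm-sensitive cells, a difference of 2.15. It was eligible through the silent sensitive group alone.

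Slc17a6 was present in 3 of 10 silent sensitive and 9 of 21 warm-sensitive cells, at 0, 0.889 and 623 CPM (lowest, median, highest) in silent sensitive cells and 0, 5.36 and 1335 CPM in warm-sensitive cells. The groups overlapped, and the difference of -1.33 was 0.16 within letters. Among all 5 eligible genes of the GABAergic list, 1 was past 4-fold higher (Dlx5) and 1 past 4-fold lower (Gad1). The median was 0.43, which was -0.41 within letters and -0.0045 without silent sensitive cell 10. The 3 eligible glutamatergic genes had a median of -0.90 and none past 4-fold.

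**Figure D2:**
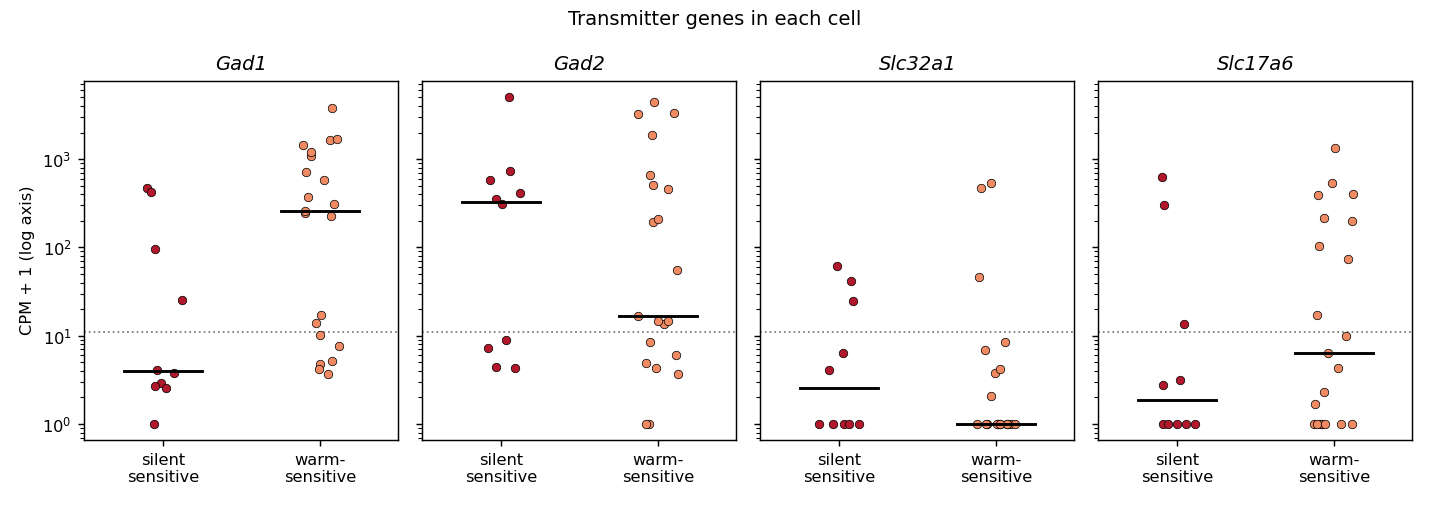
CPM + 1 of the transmitter genes on a log axis, 1 point per cell, silent sensitive cells left and warm-sensitive cells right, with the group median as a bar and a dotted line at 10 CPM. Gad1 was present in 4 of 10 silent sensitive and 15 of 21 warm-sensitive cells, Gad2 in 6 of 10 and 14 of 21.

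Neuropeptide genes as a list did not separate the groups. Of 27 listed, 23 had a count in some cell, 13 with a higher and 10 with a lower mean in silent sensitive cells, and their median difference was 0.30. Of the 5 eligible genes, Cck, Trh and Oxt were eligible through the silent sensitive group alone, where they were high, so their direction was fixed by that rule. Avp and Tac1 were eligible in both groups.

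Cck, cholecystokinin, was present in 3 of 10 silent sensitive and 1 of 21 warm-sensitive cells, at 0, 1.36 and 3962 CPM (lowest, median, highest) in silent sensitive cells and 0, 0 and 928 CPM in warm-sensitive cells. Its difference of 2.71 rested on 3 silent sensitive cells and ran from 1.74 to 3.18 with any 1 cell left out. Trh, thyrotropin-releasing hormone, was present in 4 of 10 silent sensitive and 2 of 21 warm-sensitive cells, at 0, 2.37 and 389 CPM (lowest, median, highest) in silent sensitive cells and 0, 0 and 4174 CPM in warm-sensitive cells, a difference of 2.24. A single warm-sensitive cell held the highest Trh level of all 31, and over summed counts the sign turned to -0.42. Oxt, oxytocin, was present in 4 of 10 silent sensitive and 2 of 21 warm-sensitive cells, with a difference of 2.15.

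Avp, vasopressin, was the peptide gene present in the largest number of cells, 7 of 10 silent sensitive and 10 of 21 warm-sensitive cells. Its levels were 0, 219 and 824 CPM (lowest, median, highest) in silent sensitive cells and 0, 6.72 and 894 CPM in warm-sensitive cells. The difference was 2.30 and 1.56 within letters. Avp and Oxt are near-identical over part of their sequence, so their counts are uncertain where reads could be split. Tac1, which encodes substance P, was present in 4 of 10 silent sensitive and 6 of 21 warm-sensitive cells, with a difference of 1.78. The number of peptide genes present per cell did not separate the groups, with a median of 3 (1 to 7) in silent sensitive cells and 3 (0 to 5) in warm-sensitive cells.

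Adcyap1 and Bdnf, which in mice have been used to mark warm-activated preoptic neurons, were not eligible. Adcyap1, the PACAP gene, was present in 2 of 10 silent sensitive and 3 of 21 warm-sensitive cells, at 0, 0 and 1669 CPM (lowest, median, highest) in silent sensitive cells and 0, 0.693 and 465.6 CPM in warm-sensitive cells. Bdnf, a neurotrophin, was present in 1 of 10 silent sensitive and 1 of 21 warm-sensitive cells. Its 1366 CPM in silent sensitive cell 8 compare with a highest value of 13.6 CPM in warm-sensitive cells, just over the 10 CPM limit. Most cells of both groups had under 10 CPM of either gene.

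Granins and peptide-processing genes, of which 10 were eligible, had a median of 0.09, with 5 higher and 5 lower. Vgf, a secreted granin-like protein, was past 4-fold: it was present in 6 of 10 silent sensitive and 7 of 21 warm-sensitive cells, at 0, 59.1 and 1424 CPM (lowest, median, highest) in silent sensitive cells and 0, 0 and 272 CPM in warm-sensitive cells, a difference of 2.37. Scg5, a chaperone of the convertase PC2, was at the low end with -1.67, present in 7 of 10 silent sensitive and 18 of 21 warm-sensitive cells.

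Genes of the spike stood on both sides of 0. Of 7 eligible voltage-gated sodium channel genes none was past 4-fold, and the median was 0.65; 4 of them were eligible through the silent sensitive group alone, where they were high. Scn1a, an alpha subunit, was present in 3 of 10 silent sensitive and 9 of 21 warm-sensitive cells, with a difference of -1.50. Fgf12 and Fgf13, intracellular factors that bind sodium channels, had differences of 1.82 and 1.32. Both were eligible through the silent sensitive group alone, so that rule largely set their direction.

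Of 7 eligible voltage-gated potassium channel genes and partners, 1 was past 4-fold in each direction, and the median was -0.31. Both were eligible only through the group where they were high, so that rule largely set their direction. Of the 3 genes eligible in both groups, 0 were past 4-fold. Dpp6, an accessory subunit of the A-type Kv4 channels, was present in 2 of 10 silent sensitive and 13 of 21 warm-sensitive cells. Its levels were 0, 3.78 and 1714 CPM (lowest, median, highest) in silent sensitive cells and 0, 93.4 and 1830 CPM in warm-sensitive cells, a difference of -2.71 and -2.49 within letters. Kcnip1, another Kv4 partner, stood the other way with 2.24, present in 3 of 10 silent sensitive and 2 of 21 warm-sensitive cells.

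Of 15 calcium channel genes, all with a count, 10 had a higher and 5 a lower mean in silent sensitive cells, with a median difference of 0.17. Of the 4 eligible genes, 3 were eligible through the silent sensitive group alone, where they were high, Cacna1b among them. Cacna1b, the N-type channel of nerve terminals, was past 4-fold at 2.07, present in 4 of 10 silent sensitive and 2 of 21 warm-sensitive cells.

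Among genes of the resting membrane, a chloride transporter stood higher in silent sensitive cells. Slc12a5, the neuronal potassium-chloride cotransporter KCC2, which keeps chloride low so that GABA inhibits, was present in 8 of 10 silent sensitive and 7 of 21 warm-sensitive cells. Its levels were 1.59, 94.4 and 489.9 CPM (lowest, median, highest) in silent sensitive cells and 0, 1.06 and 1442 CPM in warm-sensitive cells, with a difference of 2.72. Of all 10 eligible pump and transporter genes, 2 were past 4-fold higher, Slc12a5 among them, and none lower. All 10 were eligible in both groups, where 76 of 1440 genes were past 4-fold higher. The median over the 10 was 0.07. Atp1b2, a beta subunit of the sodium pump, was at the low end with -1.57. Astrocyte markers had summed levels of 25.5, 4290 and 8915 CPM (lowest, median, highest) in silent sensitive cells and 25, 3188 and 37516 CPM in warm-sensitive cells, and Aqp4, a defining one, was present in 1 of 10 silent sensitive and 1 of 21 warm-sensitive cells; their part in the differences of this list was not tested.

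Of 5 eligible genes for leak, two-pore potassium and HCN channels, 4 were eligible through the silent sensitive group alone. Among them Unc80, a partner of the sodium leak channel, was past 4-fold at 2.22, present in 4 of 10 silent sensitive and 5 of 21 warm-sensitive cells. Nalcn, the leak channel itself, stood the other way at -1.42, present in 2 of 10 silent sensitive and 6 of 21 warm-sensitive cells. Nalcn was eligible through the warm-sensitive group alone. Kcnk3, the two-pore channel TASK-1, was present in 3 of 10 silent sensitive and 1 of 21 warm-sensitive cells, a difference of 1.70. Kcnk2, the heat-responsive channel TREK-1, was not eligible and was present in 1 of 10 silent sensitive and 0 of 21 warm-sensitive cells.

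No gene of the TRP channel family, of the calcium- and sodium-activated potassium channels or of the inward rectifiers was eligible. Trpm2, a heat-activated channel, was present in 1 of 10 silent sensitive and 2 of 21 warm-sensitive cells, at up to 190 CPM in silent sensitive and 102 CPM in warm-sensitive cells. Of the TRP genes Trpm7 was present in the largest number of cells, 2 of 10 silent sensitive and 5 of 21 warm-sensitive. Trpv1, Trpv3, Trpv4 and Trpm8 had no count in any of the 31 cells.

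Receptor genes did not move one way. Of 11 eligible GABA receptor genes, 1 was past 4-fold higher and none lower. The median was -0.42, which was 0.30 within letters and -0.041 without silent sensitive cell 6. Gabra4, an alpha subunit, was present in 4 of 10 silent sensitive and 0 of 21 warm-sensitive cells, with a highest level of 1969 CPM in silent sensitive and 4.54 CPM in warm-sensitive cells and a difference of 2.83. Gabra4 was eligible through the silent sensitive group alone. Gabrb2, a beta subunit, was at the low end with -1.50. Of 5 eligible ionotropic glutamate receptor genes none was past 4-fold. Their median of 0.29 was 1.202 without the cells in which Rn45s took over 75%, and -0.24 without silent sensitive cell 3. The summed level of all 16 listed genes had a median of 136 CPM in silent sensitive and 1262 CPM in warm-sensitive cells. Gria2, the AMPA subunit that limits calcium entry, was present in 5 of 10 silent sensitive and 14 of 21 warm-sensitive cells and differed by -1.45.

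Hormone and prostaglandin receptor genes were rarely present, with 1 of 23 eligible. Ptger3, the prostaglandin EP3 receptor through which fever signals act in the preoptic area, had no count in any of the 31 cells. Lepr, the leptin receptor, was present in 1 of 10 silent sensitive and 1 of 21 warm-sensitive cells. Counts of 0 do not show that these RNAs were absent at this depth.

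Immediate early genes, which follow recent activity and tissue handling, summed to 111, 8570 and 22250 CPM in silent sensitive cells and 536, 8274 and 49149 CPM in warm-sensitive cells (lowest, median and highest cell). Fos was present in 10 of 10 silent sensitive and 19 of 21 warm-sensitive cells, at 18.7, 2360 and 7114 CPM (lowest, median, highest) in silent sensitive cells and 3.78, 2499 and 17610 CPM in warm-sensitive cells. The difference was 0.18, but 2.35 within letters, and the 2 lowest silent sensitive cells, at 23.5 and 18.7 CPM, were cells 5 and 6 of letter C. Fosb was past 4-fold: it was present in 8 of 10 silent sensitive and 10 of 21 warm-sensitive cells, at 0, 253 and 2017 CPM (lowest, median, highest) in silent sensitive cells and 0, 3.18 and 1087 CPM in warm-sensitive cells. Its difference was 2.58 and 5.03 within letters. Klf6, a zinc finger factor, was the other gene past 4-fold, at 2.36. Over 15 eligible immediate early genes the median was 0.07, and 1.29 within letters.

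Calcium-binding and calmodulin-dependent genes, 15 of them eligible, had a median of 0.72, with 1 past 4-fold in each direction. Pvalb, parvalbumin, was present in 3 of 10 silent sensitive and 0 of 21 warm-sensitive cells and differed by 2.16. It was eligible through the silent sensitive group alone. Calb1, calbindin, was present in 3 of 10 silent sensitive and 12 of 21 warm-sensitive cells, at 1.95, 5.06 and 588 CPM (lowest, median, highest) in silent sensitive cells and 0, 17.7 and 2457 CPM in warm-sensitive cells. The Calb1 difference was -1.75, and -2.91 within letters. Pnck, the gene past 4-fold lower, is described among the ranked genes. Of 14 eligible heat shock and cold-inducible genes none was past 4-fold, and the median was -0.03. Hsp90ab1, a chaperone, was present in every cell, at 24.4, 1293 and 2595 CPM (lowest, median, highest) in silent sensitive cells and 341, 2317 and 7979 CPM in warm-sensitive cells, with a difference of -1.37. Of the preoptic transcription factors 2 were eligible, each only through the group where it was high. Tcf7l2, a Wnt pathway factor, was at 3.03, present in 6 of 10 silent sensitive and 5 of 21 warm-sensitive cells. Zic1 was at -1.64, present in 0 of 10 silent sensitive and 6 of 21 warm-sensitive cells.

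Energy genes did not separate the groups. All 32 listed genes of nuclear oxidative phosphorylation were eligible, with a median of -0.02, 15 higher and 17 lower. Ndufa10, a complex I subunit, was past 4-fold higher at 3.28, present in 7 of 10 silent sensitive and 9 of 21 warm-sensitive cells. Uqcrh, a complex III subunit, was past 4-fold lower at -2.51, present in 8 of 10 silent sensitive and 20 of 21 warm-sensitive cells. Ndufb9, another complex I subunit, differed by 0.77. The median of 24 eligible genes of glycolysis and the citric acid cycle was 0.03. Cs, citrate synthase, differed by 1.31, and Idh3a, an isocitrate dehydrogenase subunit, by -2.52. Idh3a was eligible through the warm-sensitive group alone.

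Proteasome genes had a median of 0.62 over 27 eligible members, 18 higher and 9 lower. Past 4-fold were 3 of the 27, all higher, beside 10.1% of all eligible genes. Psmd4, a ubiquitin receptor of the proteasome, was highest, present in 8 of 10 silent sensitive and 9 of 21 warm-sensitive cells, at 1.7, 511 and 1720 CPM (lowest, median, highest) in silent sensitive cells and 0, 4.43 and 2652 CPM in warm-sensitive cells. Its difference was 3.40. Within letters the list median was -0.04.

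Motor genes spread to both sides. Of 19 eligible, 4 were past 4-fold higher and 1 lower, with a median of -0.23. Kif5c and Kif1a, kinesins that carry vesicles along axons, differed by 3.33 and 2.72. Kif5c was at 0, 559 and 3564 CPM (lowest, median, highest) in silent sensitive cells and 0, 8.89 and 722 CPM in warm-sensitive cells. Dctn1, the large dynactin subunit, differed by -2.50, present in 2 of 10 silent sensitive and 10 of 21 warm-sensitive cells. It was eligible through the warm-sensitive group alone.

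Pan-neuronal genes, all 18 of them eligible, had a median of -0.04, with 9 higher and 9 lower and 1 past 4-fold in each direction. The lower one was Nefm, a neurofilament, at -2.17, eligible through the warm-sensitive group alone. Synaptic release genes, 16 eligible, had a median of -0.05. Nsf, the ATPase that takes SNARE complexes apart, was the gene past 4-fold there, at -2.08, present in 5 of 10 silent sensitive and 17 of 21 warm-sensitive cells.

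Many of these differences rested on few cells. Of 37 list genes past 4-fold, 16 stayed past it whichever cell was left out and 21 did not. Without silent sensitive cell 8, Cacna1b was at 1.13, Unc80 at 1.45 and Uqcrh at -1.82. Without silent sensitive cell 9, Avp was at 1.90, Gabra4 at 1.99 and Psmd3 at 1.31, and without cell 10 Cck was at 1.74. Without silent sensitive cell 1, Kcnip1 was at 1.33, Psma1 at 1.49 and Dynll1 at 1.85. Without cell 2, Trh was at 1.67, Dlx5 at 1.28, Mobp at 1.47 and Trf at 1.70. Without cell 3, Oxt was at 1.48 and Pvalb at 1.49, and without cells 4, 5, 6 or 7, each in turn, Vgf was at 1.72, Aif1 at 1.503, Klf6 at 1.66 and Nsf at -1.56. Nefm was at -1.86 without warm-sensitive cell 6. Gad1, Pnck, Dpp6, Slc12a5, Fosb, Kif5c, Kif1a, Psmd4, Ndufa10, Sdhc, Tcf7l2, Dctn1 and Idh3a were among those that stayed. Of these, Dpp6, Tcf7l2, Dctn1 and Idh3a were eligible only through the group where they were high.

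**Figure D3:**
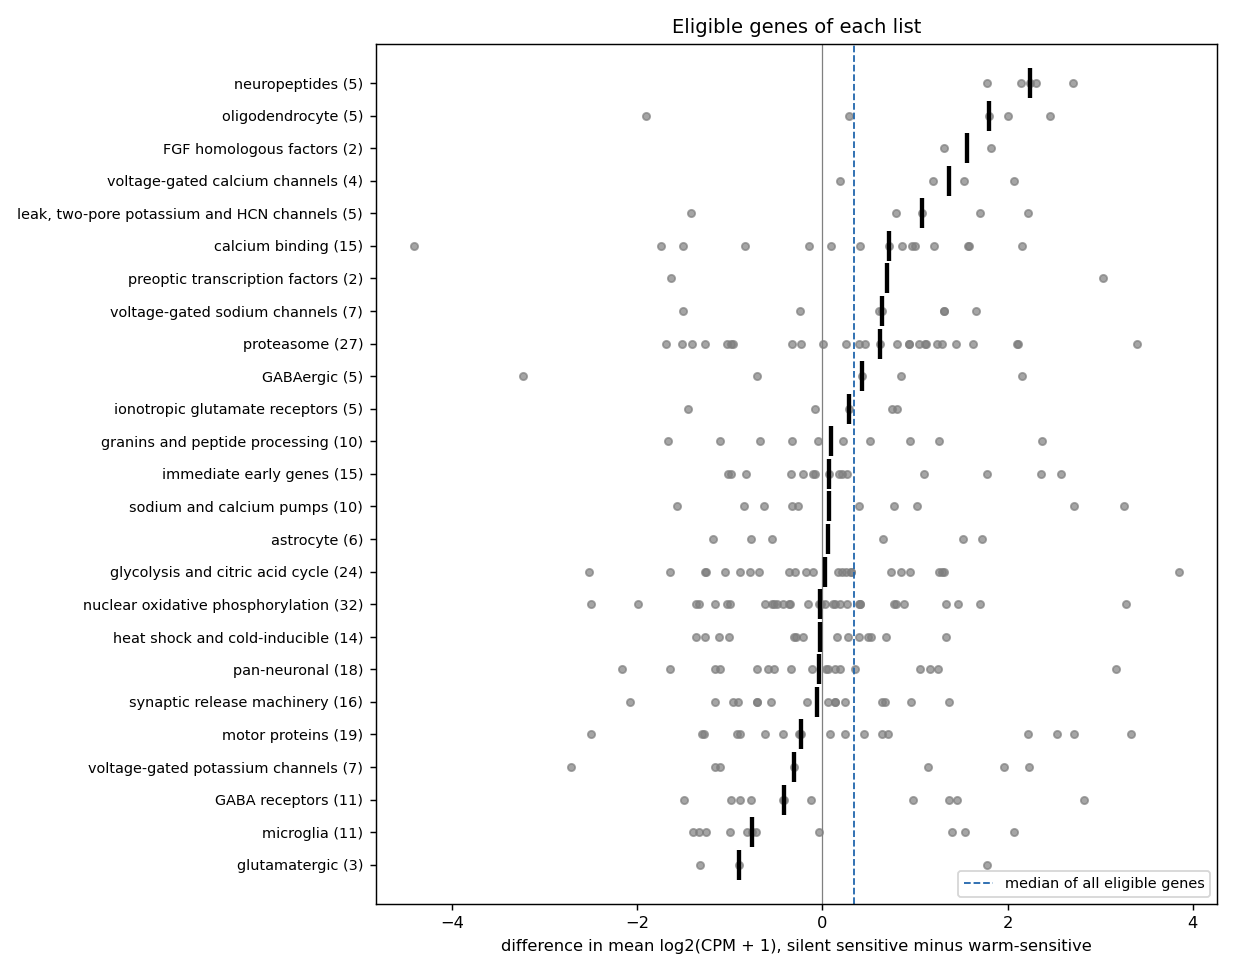
Each grey point is 1 eligible gene of a list, the black bar is the list median, and the dashed line is the median of all 2938 eligible genes, 0.34. The x axis is the difference in mean log2(CPM + 1), silent sensitive minus warm-sensitive, and the number of eligible genes stands in parentheses. Points lie on both sides of 0 in most lists. Medians of lists with few eligible genes partly follow from the rule of eligibility: 3 of the 5 neuropeptide and 3 of the 4 calcium channel genes were eligible through silent sensitive cells alone.

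Apart from these lists, 12 genes per direction were named by a ranking of the eligible genes. Many were eligible only through the group where they were high, so the rule of eligibility largely set their direction. On the higher side these include Ube2e3, Spop, Fbxl16, Dusp3, Hcfc1 and G3bp1. On the lower side they include Csnk2b, Rab24, Slc24a3, Mesdc2, Map1lc3b, Rcn2, Mcfd2, Fasn, Fxyd6 and Rwdd1. On the higher side, differences ran from 3.54 to 4.45. Ube2e3, a ubiquitin-conjugating enzyme (chromosome 2, 78868124 to 78921293, plus strand), ranked first. It was present in 70% of silent sensitive cells (95% interval 34.8 to 93.3%) and 19% of warm-sensitive cells (5.45 to 41.9%). Its levels were 0, 247 and 949 CPM (lowest, median, highest) in silent sensitive cells and 0, 0 and 1206 CPM in warm-sensitive cells. A single warm-sensitive cell held the highest level of all, at 1206 CPM, while the median warm-sensitive cell had no count. The difference was 4.45, and 4.04 to 5.14 when any 1 cell was left out.

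Spop, an adaptor of a cullin ubiquitin ligase, was present in 7 of 10 silent sensitive and 4 of 21 warm-sensitive cells, with a difference of 4.11. Fbxl16, an F-box protein, was present in 6 of 10 silent sensitive and 4 of 21 warm-sensitive cells, with 3.87. Dusp3, a protein phosphatase, was present in 6 of 10 silent sensitive and 1 of 21 warm-sensitive cells, with 4.32 and 2.73 within letters.

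Hcfc1, a coregulator of transcription, was at 0, 11.6 and 2286 CPM in silent sensitive cells, against 0, 0 and 18.3 CPM in warm-sensitive cells. Its difference was 4.14. G3bp1, a protein of stress granules, was at 0, 26.4 and 512 CPM in silent sensitive cells, against 0, 0 and 13.6 CPM in warm-sensitive cells, a difference of 3.62. In both genes 5 silent sensitive cells, and 1 warm-sensitive cell, were at 10 CPM or more. Id2, an inhibitor of helix-loop-helix factors, was at 3.14, 205 and 3497 CPM in silent sensitive cells, against 0, 0 and 4557 CPM in warm-sensitive cells, and here the warm-sensitive range reached higher.

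Ttl, which adds tyrosine to tubulin, differed by 4.02, Tsn, a nucleic acid binding protein, by 3.998, Dpm1, an enzyme of mannose transfer, by 3.92, and Ccdc47, a protein of the endoplasmic reticulum, by 3.54. Sdhc, a membrane subunit of succinate dehydrogenase, was present in 8 of 10 silent sensitive and 6 of 21 warm-sensitive cells, with 3.85. Phactr1, a regulator of actin, and Tppp3, a tubulin-binding protein, could be named in any case and differed by 3.25 and 3.18. Fez1, a kinesin adaptor, was present in 2 of 10 silent sensitive and 0 of 21 warm-sensitive cells and was not eligible.

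On the lower side, differences ran from -4.41 to -3.34. Pnck, a calmodulin-dependent kinase of the CaM kinase I family (chromosome X, 73655994 to 73660117, minus strand), ranked first. It was present in 40% of silent sensitive cells (95% interval 12.2 to 73.8%) and 76.2% of warm-sensitive cells (52.8 to 91.8%). Its levels were 1.7, 5.06 and 21.7 CPM (lowest, median, highest) in silent sensitive cells and 0.693, 554 and 3676 CPM in warm-sensitive cells. All 10 silent sensitive cells had some Pnck counts but none passed 21.7 CPM, so that the share at 1 count or more was equal in the groups while the level was not. The difference was -4.41, -3.27 within letters, and -4.74 to -4.18 when any 1 cell was left out. Summed over cells Pnck was at 7.09 CPM (4.94 to 9.86) in silent sensitive cells and 649 CPM (634 to 666) in warm-sensitive cells, with exact Poisson intervals for counting error only.

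Csnk2b (chromosome 17, 35116196 to 35122053, minus strand) was at 0, 0 and 5.33 CPM in silent sensitive cells, against 0, 28.6 and 1747 CPM in warm-sensitive cells. No silent sensitive cell reached 10 CPM, and the difference was -3.87. The same held for Rab24, a GTPase of autophagy, at -3.76, for Slc24a3, a sodium-calcium exchanger, at -3.64, and for Mesdc2, a chaperone of LRP receptors, at -3.38. These were present in 8, 10 and 8 of 21 warm-sensitive cells.

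Map1lc3b, the LC3 protein of autophagosomes, was present in 1 of 10 silent sensitive and 11 of 21 warm-sensitive cells, at 0, 1.69 and 37.2 CPM in silent sensitive cells, against 0, 18.2 and 2307 CPM in warm-sensitive cells. Rcn2, a calcium-binding protein of the endoplasmic reticulum, was present in 1 of 10 silent sensitive and 14 of 21 warm-sensitive cells and differed by -4.27. Mcfd2, part of a cargo receptor between endoplasmic reticulum and Golgi, differed by -4.19. Fasn, fatty acid synthase, was present in 1 of 10 silent sensitive and 12 of 21 warm-sensitive cells, a difference of -3.70.

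Fxyd6, a modulator of the sodium pump, was present in 2 of 10 silent sensitive and 12 of 21 warm-sensitive cells, with a difference of -3.55. Tmod2, which caps actin filaments in neurons, was present in 5 of 10 silent sensitive and 19 of 21 warm-sensitive cells, at 0, 24 and 483 CPM in silent sensitive cells, against 0.693, 607 and 7286 CPM in warm-sensitive cells. Rwdd1 differed by -3.34. For all 24 ranked genes the direction was the same over 45 alternatives and cells left out. The ranking rule itself asked for this when a cell was left out, within letters and relative to the median gene, so it is no separate sign of stability.

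**Figure D4:**
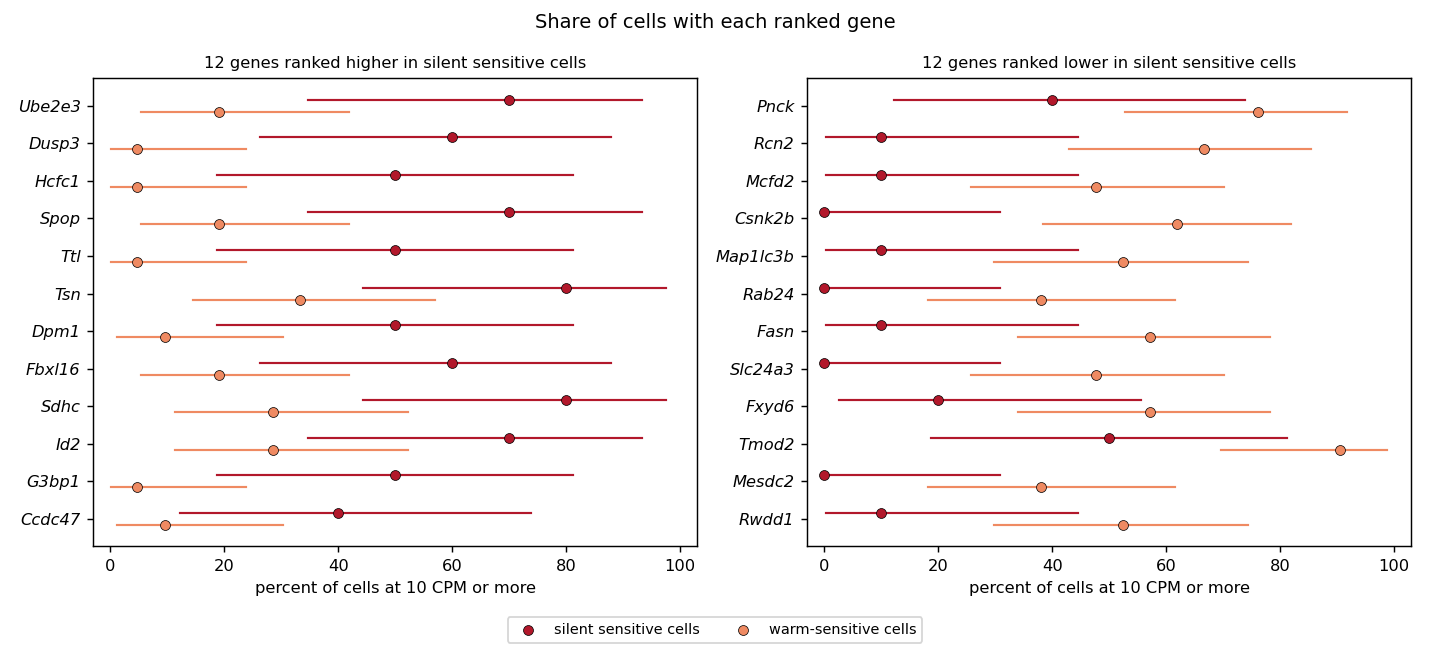
Percent of cells at 10 CPM or more for the 24 ranked genes, silent sensitive cells in dark red above warm-sensitive cells in orange, with exact Clopper-Pearson 95% intervals for counting error. Csnk2b, Rab24, Slc24a3 and Mesdc2 are at 0% in silent sensitive cells.

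Markers of other cell types were present in both groups. The summed level of 15 microglia markers was 60.6, 2776 and 63305 CPM in silent sensitive cells and 21.2, 5053 and 22861 CPM in warm-sensitive cells, and the number of markers present per cell had a median of 5 and a highest value of 14 in silent sensitive cells, and 5 and 12 in warm-sensitive cells. The list median of 11 eligible genes was -0.76, and -1.65 without silent sensitive cell 6. Cx3cr1, a defining microglial receptor, was present in 2 of 10 silent sensitive and 2 of 21 warm-sensitive cells, and P2ry12 in 2 of 10 silent sensitive and 7 of 21 warm-sensitive cells. Tyrobp, a microglial adaptor, was present in 8 of 10 silent sensitive and 12 of 21 warm-sensitive cells.

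The summed level of 13 oligodendrocyte markers was 39, 2535 and 12964 CPM in silent sensitive cells and 4.51, 644 and 80668 CPM in warm-sensitive cells. The list median of 5 eligible genes was 1.80, and -0.36 without the cells in which Rn45s took over 75%. Mobp, a myelin gene, was present in 7 of 10 silent sensitive and 10 of 21 warm-sensitive cells, and Trf, transferrin, in 4 of 10 silent sensitive and 4 of 21 warm-sensitive cells. For astrocytes, endothelial and ependymal cells the markers per cell had medians of 4, 1 and 0 in each group. The part of these markers in the other results was not tested.

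The same step, silent minus not silent, can be taken among insensitive cells, which share no cell with the first comparison. There 5368 genes were eligible and the median difference was -0.69, with 27 genes past 4-fold higher (0.503%) and 414 lower (7.71%). Median counts outside Rn45s were 362457 in silent insensitive and 761928 in insensitive cells. The part of library size in these values was not tested. Over the 2716 genes eligible in both, the Pearson correlation of the differences was 0.0038 and 46.3% had the same sign. Genes are not independent replicates, and all points share their libraries, so this is a description. Past 4-fold the same way in both were 2 genes higher and 11 lower, while 20 were past 4-fold higher among sensitive and lower among insensitive cells and 1 the other way. The 11 are of 134 genes past 4-fold lower among sensitive cells, beside 246 of all 2716 genes (9.06%) past 4-fold lower among insensitive cells. The 20 are of 251 genes past 4-fold higher among sensitive cells, beside the same 9.06%. The 2 are also of these 251, beside 0.589% of all 2716 genes past 4-fold higher among insensitive cells. These counts are not read as a shared or an opposite change. Of the 12 genes ranked higher 3 had a higher mean in silent insensitive than in insensitive cells, and of the 12 ranked lower 10 had a lower one, with none past 4-fold. Over all 5368 genes 24.3% were higher and 75.7% lower there, so these counts lie near the background.

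Single genes show this side by side. Gad1 differed by -3.24 for silent sensitive minus warm-sensitive cells and 2.10 for silent insensitive minus insensitive cells. Trh differed by 2.24 and 2.27, Calb1 by -1.75 and -3.35, and Cs by 1.31 and -3.83. The direction of these mean differences was thus shared for Trh and Calb1, and opposite for Gad1 and Cs. For Trh it turns over summed counts, to -0.42 between silent sensitive and warm-sensitive cells. Cells with a Gad gene only were 5 of 10 among silent sensitive and 11 of 21 among warm-sensitive cells, against 16 of 18 among silent insensitive and 9 of 24 among insensitive cells.

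**Figure D5:**
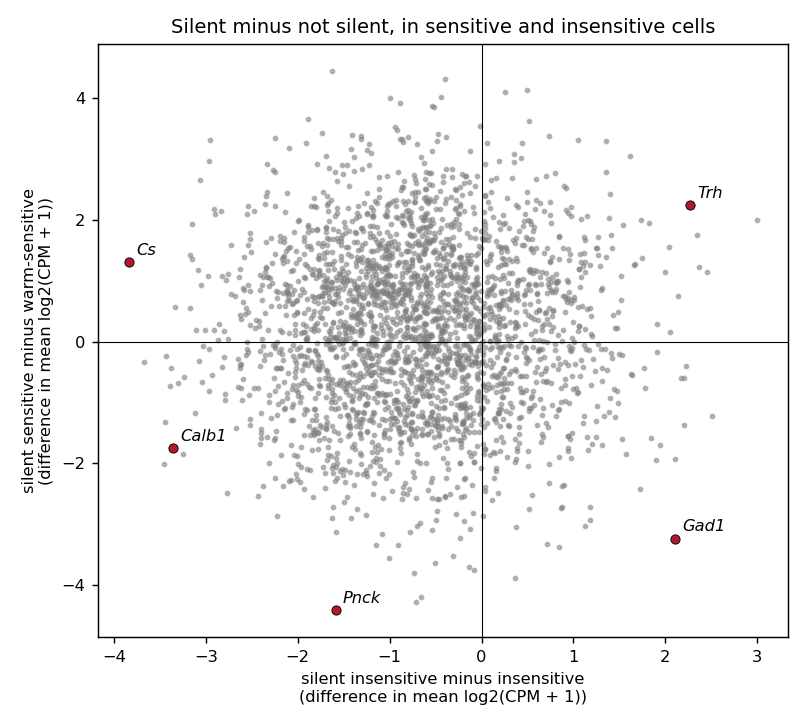
Each point is 1 of 2716 genes, with its difference of silent insensitive minus insensitive cells on the x axis and of silent sensitive minus warm-sensitive cells on the y axis, both in mean log2(CPM + 1). The cloud shows no slope (Pearson correlation 0.0038), with Trh at the upper right and Gad1 at the lower right.

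The question can also be put the other way, as sensitive minus insensitive cells. Silent sensitive minus silent insensitive cells had 118 of 3980 genes past 4-fold higher (2.96%) and 505 lower (12.7%). Warm-sensitive minus insensitive cells had 3 of 5088 higher (0.059%) and 1100 lower (21.6%). Median counts outside Rn45s were 314892 in warm-sensitive and 761928 in insensitive cells, with 3244 and 4022 detected genes. In silent sensitive and silent insensitive cells they were 415420 and 362457, with 3230 and 3668.5 genes. The part of library size in these shares was not tested. These comparisons share no cell, and over the 3478 genes eligible in both, 64.5% had the same sign and 144 were past 4-fold lower in both. That is 144 of the 441 genes past 4-fold lower among silent cells, beside 909 of all 3478 genes past 4-fold lower among the other cells. With so many genes lower in both, the overlap is not read as a shared trait. The median genes lay at -0.59 and -1.28; set against these medians, 52.3% of genes stood on the same side and the Pearson correlation was 0.080.

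Cell by cell, the groups were no closer within than between. Over 4214 genes present in at least 20% of cells, the median Pearson correlation of log2(CPM + 1) between a silent sensitive and a warm-sensitive cell was 0.225 (SD 0.037 over 210 pairs that share cells). Between 2 silent sensitive cells it was 0.224, and between 2 warm-sensitive cells 0.226. With silent insensitive and with insensitive cells silent sensitive cells had medians of 0.235 and 0.235, and with cold-sensitive cells 0.255. Cold-sensitive and insensitive cells had more detected genes, with medians of 4645 and 4022, against 3230 in silent sensitive cells. Of the 10 silent sensitive cells, 5 had a higher median correlation with warm-sensitive than with silent insensitive cells. The closest single cell was silent sensitive for 1, warm-sensitive for 2, silent insensitive for 2 and insensitive for 5 of them. The groups differed in size, so a larger one offers more cells to be closest to. With each cell thinned to 100000 counts outside Rn45s the median was 0.204 between the groups, 0.202 among silent sensitive and 0.207 among warm-sensitive cells. For silent sensitive cells with silent insensitive, insensitive and cold-sensitive cells it was then 0.216, 0.213 and 0.227.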

How the data were processed

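Single mouse preoptic neurons were sequenced by Smart-seq2, per the labels' protocols. The authors deposited raw counts, as whole numbers for each gene in each cell. A second deposited table holds normalized signal values and was used only as an alternative. FastQC, STAR, edgeR and mm10 are named, with no version, in the submitters' processing notes. Annotation, counting and strand use: not given in the sources used here, so reads of overlapping genes or close copies may be split between them. The table holds 24054 genes, 7772 of them with no count in any cell.

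Groups follow the labels for temperature sensitivity. The members and gene lists were chosen with earlier results of these data known. Counts were divided by each cell's total outside Rn45s and scaled to CPM; the pseudocount was 1 CPM. Mitochondrially encoded genes were not analysed here, and some genes of the lists are not reported here. Total counts were 1009247 to 1640135 in silent sensitive and 784577 to 2590515 in warm-sensitive cells. No 2 cells were alike enough to be 1 library, the highest correlation of log values being 0.645. Of the values above 0 of eligible genes, 34.8% were under 10 CPM, the level used to call a gene present. Named genes are the 12 eligible genes per direction with the largest difference whose share has the same sign, whose difference stays at 2/3 of its size or more without any 1 cell, and whose sign is the same within letters and relative to the median gene, without predicted, ribosomal protein and small RNA genes; list members with the largest differences, defining members and 19 further genes could be named in any case. Measures were tested on simulated data. GENCODE M21 (mm10) gave the coordinates. TMM factors came from edgeR 4.0.16 and size factors from DESeq2 1.42.0 in R 4.3.3. Tables and figures were made in Python 3.11.15 with pandas 2.3.3, numpy 2.4.6, matplotlib 3.10.9 and scipy 1.17.1.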

Additional observations from a re-analysis of the deposited data

Results flagged for a closer look

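Among 78 measures of the 10 silent sensitive cells, 19 had a highest or lowest cell whose gap to the next was large against the range. The cut is set to flag about 1 in 20 by chance, but that rate cannot be set beside this count. The measures share cells, and genes at or near 0 in most cells are flagged readily. No excess over chance is read from the count. Cell 1 had 1026836 counts outside Rn45s, above the others, and on the log2 scale of summed CPM the lowest endothelial and mural sum, 0.98. Cell 6 was lowest for GABA receptor genes (6.87) and for granins and peptide processing (6.11). Cell 5 was lowest for immediate early genes (6.80) and highest for ependymal markers (8.05), where the other 9 cells were at 0. Cell 8 was lowest for nuclear oxidative phosphorylation (11.01), glycolysis and citric acid cycle (11.2), motor proteins (9.93) and astrocyte markers (4.73).

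The other values are levels of single genes in log2(CPM + 1), each in the highest cell. Bdnf was at 10.4 in cell 8, Trpm2 at 7.57 in cell 10, Lepr at 4.96 in cell 4 and Kcnk2 at 5.07 in cell 9. Of the genes ranked lower in silent sensitive cells, Rcn2 was at 8.09 and Fasn at 3.93 in cell 4, Mcfd2 at 5.603 in cell 6, Slc24a3 at 2.72 in cell 10 and Rwdd1 at 6.18 in cell 3.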

How the results depend on the processing

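The number of genes past 4-fold moved most. The number of eligible genes also differed between settings, so these counts are not compared as shares. Against 298 higher and 137 lower of 2938 genes, totals with Rn45s included gave 172 and 67 of 2443. The deposited normalized values gave 190 and 79 of 2521, and presence in at least 50% of cells 152 and 50 of 1059. Over the same 2938 genes, a pseudocount of 0.1 CPM gave 621 and 294, and one of 10 CPM 52 and 25. Differences relative to the median gene gave 163 and 229 over these genes. Lower genes numbered 76 with DESeq2 size factors, 219 with cells thinned to 100000 counts, 278 within title letters, 367 over summed counts and 385 without cells over 75% Rn45s, where the median difference was -0.29. With no limit on low genes the median difference was -0.06. Leaving out each cell, with eligible genes chosen anew, gave 277 to 387 higher, 133 to 183 lower and a median difference of 0.094 to 0.43. Trh reversed to -0.42 over summed counts. Relative to the median gene, the list medians of glutamatergic (0.27), microglia (0.86) and endothelial and mural genes (-0.10) reversed over summed counts, and that of oligodendrocyte markers (-0.43) without cells over 75% Rn45s. The difference of shares of cells for Pnck was 0 points at 1 count and 4.76 points at 1 CPM, and for Calb1 19.05 points at both, against negative differences at 10 CPM. The median correlation of silent sensitive with cold-sensitive cells was 0.207 over genes present in at least 50% of cells. The cause of these shifts was not tested. The correlation with the insensitive cells' differences stayed between -0.013 and 0.014 over its alternatives, which, like leaving out the cells highest in glial markers, were chosen after seeing the data. No paired analysis was possible because the replicate numbers only name cells and no result came from a test. With 10 cells, a share of 0 allows up to 30.8%.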
